A study of Mus musculus with 2 samples.

Results

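The cyclins, the cyclin-dependent kinases (CDKs), their inhibitors and the E2F factors are the core regulators of the cell division cycle. Here 53 of their genes, listed by name, were looked up among the 47719 gene identifiers of 1 deposited mouse table, of which 47219 had a symbol. All 53 were found, and 51 of them reached at least 1 CPM (the library-scaled read count) in a library. They were compared between cultured keratinocytes of the genotype K5.Pp6fl/fl and keratinocytes of the genotype Pp6fl/fl, 1 library each. The mice were C57BL/6J and 8 weeks old, their tail keratinocytes spent 3 days in Medium 154CF, and both genotypes carry the floxed allele of Pp6. This gene, Ppp6c in the table, encodes the catalytic subunit of protein phosphatase 6. In K5.Pp6fl/fl mice that allele is deleted by Cre, driven from the promoter of the basal keratin gene Krt5, while Pp6fl/fl cells lack Cre and served as the control. Whether tails of several mice were pooled for a culture is not stated in the labels, and sex-linked transcripts, given below, bear on this.

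D-type cyclins with Cdk4 and Cdk6, and then E-type cyclins with Cdk2, inactivate the pocket proteins of the retinoblastoma family, which frees E2F factors to switch on the genes of DNA synthesis. Later in the cycle the MuvB complex, joined by B-Myb and then FoxM1, switches on the genes of G2 and mitosis, among them the A- and B-type cyclins that drive Cdk1. The anaphase-promoting complex (APC/C) with its activators Cdc20 and Fzr1 destroys the mitotic cyclins, and CDK inhibitors of the Cip/Kip and INK4 families hold the kinases back when keratinocytes stop dividing and differentiate. The members were therefore sorted into 20 genes of G2 and mitosis (G2/M), 16 of the G1-to-S transition (G1/S), 15 of cell cycle exit and repression, and 2 of the CDK-activating kinase.

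Reads assigned to genes came to 17361242 in K5.Pp6fl/fl and 19374763 in Pp6fl/fl. Neither genotype was replicated, so no difference below was tested against a spread between cultures, and every interval (95%) covers counting error only. Ppp6c itself had 707 reads in the K5.Pp6fl/fl library and 1074 in the Pp6fl/fl library, a ratio of CPM of 0.733 (0.666 to 0.807). Transcripts of the targeted gene thus remained in K5.Pp6fl/fl, and how complete the deletion was in these cells was not tested. The keratinocyte markers Krt14, Krt5 and Col17a1 were abundant in both libraries, and the summed level of 9 keratinocyte markers was 53437 CPM in K5.Pp6fl/fl and 57019 CPM in Pp6fl/fl. Of the 9, 8 had a ratio below 1, and 6 had an interval below 1. The other, the rarest, stood at 5.64 CPM in K5.Pp6fl/fl and 3.72 CPM in Pp6fl/fl, a ratio of 1.52. Of 6 fibroblast markers none reached 1 CPM, and of 6 immune markers 4 had no read in either library, Ptprc and Lyz2 among them. The macrophage and lysosome gene Cd68 stood at 25.0 CPM in K5.Pp6fl/fl and 29.7 CPM in Pp6fl/fl, a ratio of 0.840 (0.740 to 0.953), and Itgam had 6 reads in K5.Pp6fl/fl and 3 in Pp6fl/fl. Of 6 melanocyte markers 4 reached 1 CPM and all 6 had a ratio above 1, with a summed level of 15.4 CPM in K5.Pp6fl/fl against 7.70 CPM in Pp6fl/fl. The 4 endothelial markers summed to 1.5 CPM in K5.Pp6fl/fl and 0.982 CPM in Pp6fl/fl, and of 3 muscle markers Acta2 alone passed the expression floor, at 13.4 CPM in K5.Pp6fl/fl and 15.8 CPM in Pp6fl/fl. The part of other cells in the results below was not tested. In bulk RNA, a different share of cells in a phase and a different amount of RNA per cell cannot be told apart. Transcripts of Xist and of the Y-linked genes Ddx3y, Eif2s3y, Kdm5d and Uty were present in both libraries. Each library thus held RNA of both sexes, and so of more than 1 mouse. Xist stood at 255 CPM in K5.Pp6fl/fl and 288 CPM in Pp6fl/fl, and Ddx3y at 51.8 CPM in K5.Pp6fl/fl and 36.3 CPM in Pp6fl/fl. The part of the sexes of the mice in the results was not tested.

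In K5.Pp6fl/fl keratinocytes 11 of the 20 G2/M transcripts were at least 1.3-fold higher than in Pp6fl/fl keratinocytes, and 6 of the 20 had an interval that spanned 1. None of the 16 G1/S transcripts was past that margin, and 13 of their intervals spanned 1. Of the 13 expressed exit genes none was past it either, with 6 intervals above 1 and 3 below. A gene was counted as past the 1.3-fold rule when its ratio of CPM was at least 1.3 or at most 1 over 1.3, its larger value was at least 1 CPM and its counting interval was clear of 1. Of the 51 expressed members 11 were at least 1.3-fold higher, against 6.64% of all 12326 expressed genes, and 0 were at least 1.3-fold lower, against 3.16% of all. All 11 belong to the G2/M list. They were the cyclins Ccna2, Ccnb1 and Ccnb2, the kinase Cdk1 and its partner Cks2, the phosphatases Cdc25b and Cdc25c, the APC/C genes Cdc20 and Ube2c, and the proliferation markers Mki67 and Top2a. The 1.3-fold margin, the members and the phase lists were chosen with earlier results of these data known. The excess of members depended on that margin. At 1.5-fold 2 of the 51 were higher, against 3.86% of expressed genes. No expressed member passed a 2-fold rule, by which 0.811% of expressed genes were higher and 0.195% lower. For the 2-fold rule 0.5 CPM was added to each value before the ratio, and the interval had to be clear of 1. By the counting interval alone, 23 members lay above a ratio of 1, against 16.6% of expressed genes, 3 lay below it (E2f4, E2f6 and E2f7), against 17.4%, and 25 intervals spanned 1. The share of genes past the rule depended on their level, so the counts were also taken at higher floors. Of the members 10 passed at 20 CPM or more, out of 43 at that level, where 4.09% of genes were higher and 1.33% lower. At 5 CPM or more the same 11 passed, where 5.64% of genes were higher and 2.56% lower.

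The phase lists, chosen with earlier results of these data known, separated by their medians. The 20 G2/M members had a median log2 ratio (0.5 CPM added to each value) of 0.45, a median ratio of 1.37, against a median log2 ratio of -0.01 over all expressed genes. Their ratios ran from 0.963 for Pkmyt1 to 1.72 for Cdc25c, and 19 of the 20 were above 1. The 16 G1/S members had a median log2 ratio of 0.01 with ratios from 0.919 for Skp2 to 1.24 for Ccne2, 8 above 1 and 8 below. The 13 expressed exit members had a median log2 ratio of 0.19 with ratios from 0.806 for E2f7 to 1.32 for Cdkn2b. Summed over the list, G2/M members made up 1848 CPM in K5.Pp6fl/fl and 1399 CPM in Pp6fl/fl, a ratio of 1.32 (1.3 to 1.34). The sum of the G1/S members was 1483 CPM in K5.Pp6fl/fl and 1467 CPM in Pp6fl/fl, a ratio of 1.01 (0.994 to 1.03). Just inside the 1.3-fold rule stood Cdc25b with a ratio of 1.36. Just outside it stood Cdkn2b, whose ratio of 1.32 had an interval that included 1 (0.961 to 1.82), and then Rb1 and Cdkn3, both with a ratio of 1.25.

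**Figure D1:**
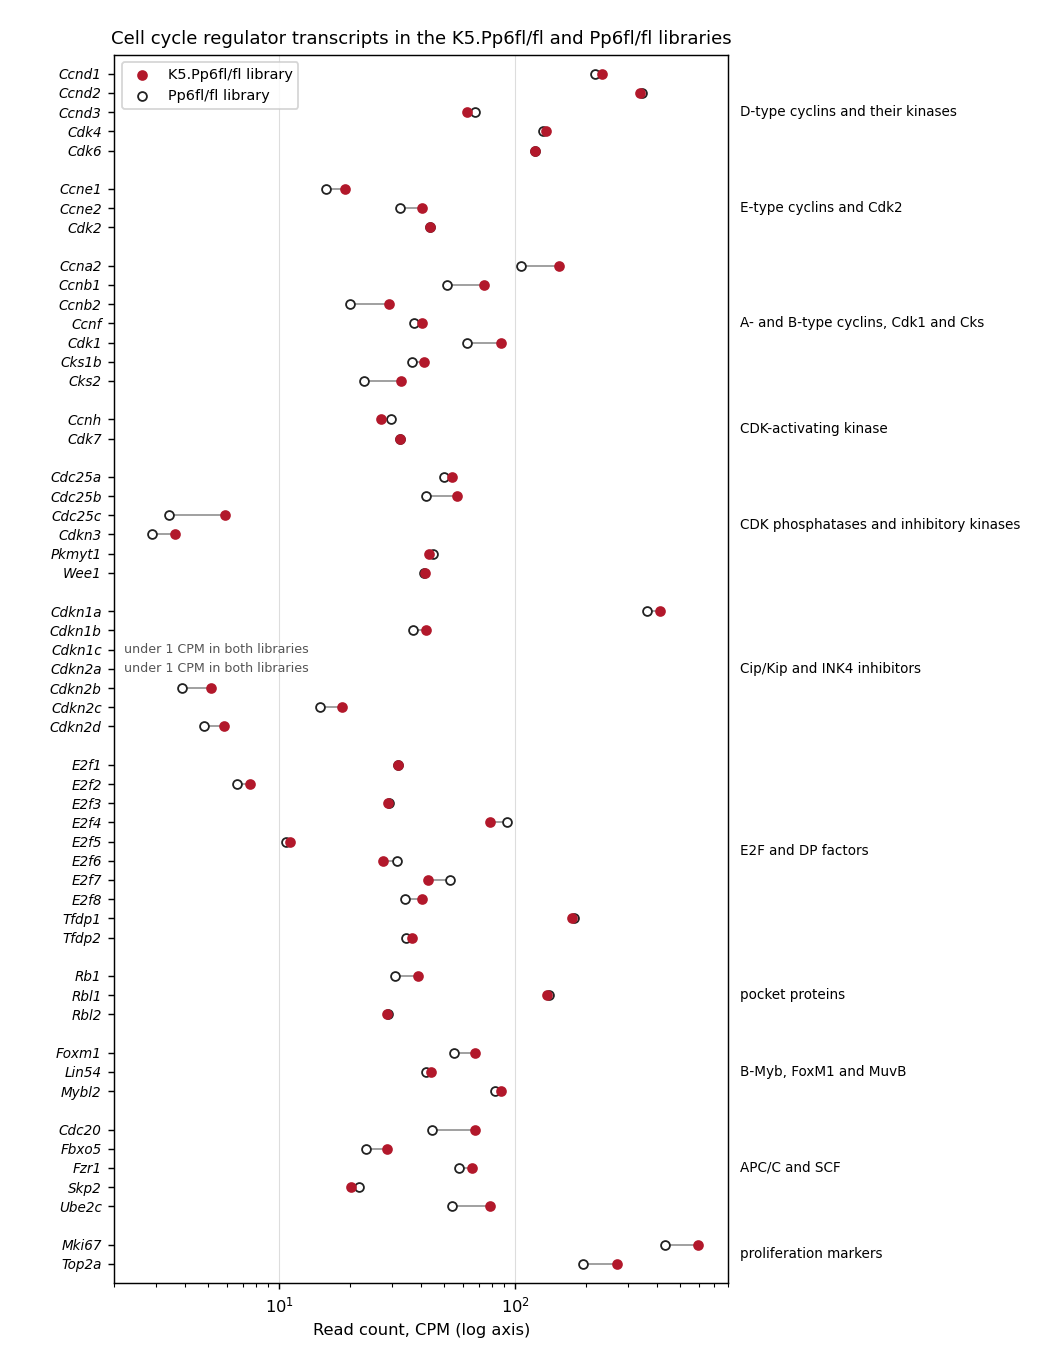
Level of each expressed member in CPM (log axis) in the K5.Pp6fl/fl library (filled) and the Pp6fl/fl library (open), grouped by role, with a line joining the pair. The widest gaps to the right are those of Ccna2, Ccnb1, Ccnb2, Cdk1, Cks2, Cdc25b, Cdc25c, Cdc20, Ube2c, Mki67 and Top2a, and Cdkn1c and Cdkn2a, under 1 CPM in both libraries, are named without points.

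**Figure D2:**
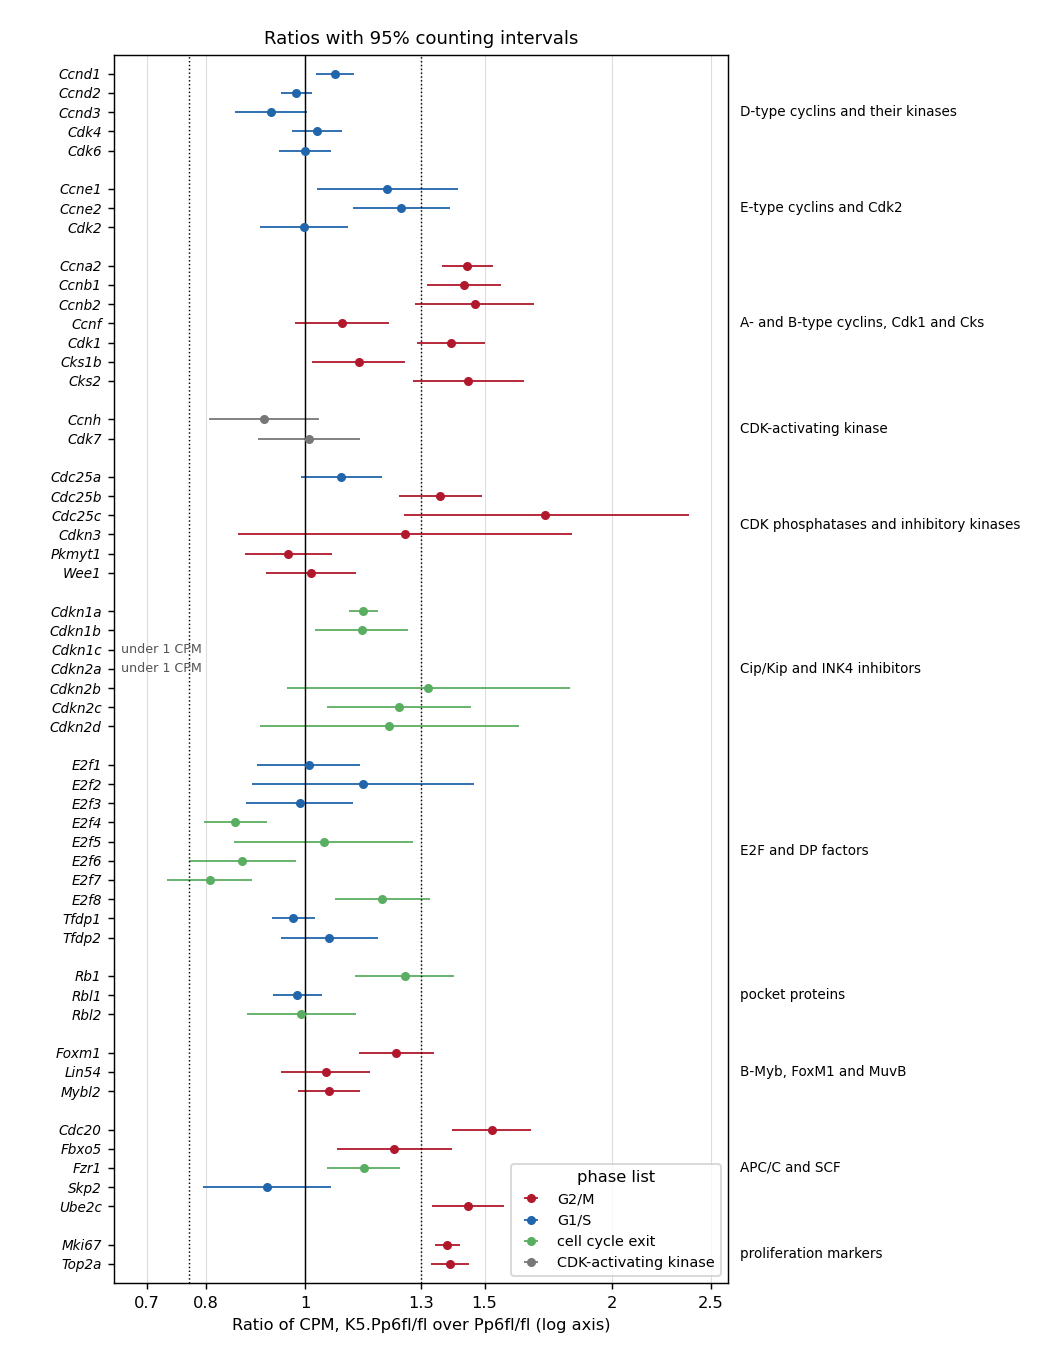
CPM of each expressed member in K5.Pp6fl/fl divided by that in Pp6fl/fl (log axis), with its 95% counting interval, coloured by phase list. The solid line marks a ratio of 1 and the dotted lines the 1.3-fold rule in both directions, beyond which 11 G2/M members lie with an interval clear of 1.

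Promoters of G2/M genes are known for a pair of elements, the cell cycle genes homology region (CHR), which the MuvB subunit Lin54 binds, and the CCAAT box, which NF-Y binds, whereas G1/S genes are known for E2F sites. The promoter windows of RefSeq (GRCm38.p6, 250 bases before to 50 after each start) were available for 40 of the 53 members. They were searched on both strands for the CHR letters TTTGAA or TTTAAA, for CCAAT, and for the E2F cores TTTCCCGC, TTTGGCGC, TTTCGCGC or TTTGCCGC. The following stretches, the 140 bases before the start, are examples that hold both a CHR and a CCAAT box. Their 4 genes were among the members past the 1.3-fold rule, with ratios of 1.52, 1.44, 1.43 and 1.39. Capitals mark the searched motifs on either strand.
Cdc20, chr4:118437344-118437483, minus strand: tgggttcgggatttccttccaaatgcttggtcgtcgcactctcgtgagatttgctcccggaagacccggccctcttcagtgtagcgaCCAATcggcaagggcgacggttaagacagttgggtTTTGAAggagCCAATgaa
Ube2c, chr2:164769789-164769928, plus strand: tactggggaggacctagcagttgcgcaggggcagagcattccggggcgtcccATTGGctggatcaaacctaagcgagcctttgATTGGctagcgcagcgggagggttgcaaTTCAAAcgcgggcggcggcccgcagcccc
Ccnb1, chr13:100786487-100786626, minus strand: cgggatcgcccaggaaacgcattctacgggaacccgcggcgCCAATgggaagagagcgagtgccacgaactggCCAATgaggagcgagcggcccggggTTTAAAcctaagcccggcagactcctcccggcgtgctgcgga
Cdk1, chr10:69352913-69353052, minus strand: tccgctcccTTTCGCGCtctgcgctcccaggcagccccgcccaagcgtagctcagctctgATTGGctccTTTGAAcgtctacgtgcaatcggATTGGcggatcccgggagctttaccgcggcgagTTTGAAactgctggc
Each of the 4 holds a CHR within 50 bases of its start and at least 1 CCAAT box upstream of that CHR, and Cdk1 also holds an E2F core. Not all members past the rule had this pair. Cks2 and Cdc25b, with ratios of 1.45 and 1.36, had a CCAAT box but no CHR in their windows.

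The same pair of elements stood before G2/M genes that did not pass the rule. Ccnf and Cks1b are shown because their promoters look like those above while their ratios were 1.09 and 1.13.
Ccnf, chr17:24251410-24251549, minus strand: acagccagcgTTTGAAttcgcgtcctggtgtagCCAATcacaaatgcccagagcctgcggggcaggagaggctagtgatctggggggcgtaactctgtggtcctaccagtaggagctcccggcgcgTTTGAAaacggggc
Cks1b, chr3:89418292-89418431, minus strand: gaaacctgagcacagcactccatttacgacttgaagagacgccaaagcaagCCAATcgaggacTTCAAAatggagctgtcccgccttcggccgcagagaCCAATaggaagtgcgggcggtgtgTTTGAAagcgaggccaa
Rbl1 and Cdc25a, of the G1/S list, are shown for contrast, with an E2F core and no CHR in the stretch (Cdc25a also has CCAAT boxes), and with ratios of 0.982 and 1.09.
Rbl1, chr2:157204535-157204674, minus strand: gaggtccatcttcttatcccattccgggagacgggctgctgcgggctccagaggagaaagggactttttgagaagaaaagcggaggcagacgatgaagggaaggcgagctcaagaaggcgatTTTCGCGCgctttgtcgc
Cdc25a, chr9:109875439-109875578, plus strand: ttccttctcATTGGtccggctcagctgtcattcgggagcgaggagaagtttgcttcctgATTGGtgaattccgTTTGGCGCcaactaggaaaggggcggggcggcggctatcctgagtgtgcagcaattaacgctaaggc
A window with both a CHR and a CCAAT box was found for 12 of 15 G2/M members (80%), for 3 of 13 G1/S members (23.1%) and for 2 of 11 exit members (18.2%), against 12.2% of all 27025 genes in the promoter table. An E2F core was found for 6 of 13 G1/S members (46.2%) and for 1 of 15 G2/M members, Cdk1, against 2.61% of all genes. The pair of elements did not separate the 15 G2/M members that have a window by their ratio. It was present in 7 of 9 members past the 1.3-fold rule that have a window, and in 5 of the 6 G2/M members with a window that did not pass. No window was available for Ccna2, Cdc25c, Foxm1, Wee1 and Pkmyt1. Over all expressed members with a window, the 17 with both elements had a median ratio of 1.22 and the 22 without had one of 1.04. Of these 17, 12 were G2/M members, so this contrast cannot be told apart from that between the phase lists. A match is a run of letters and not a measured binding site, since no binding was measured here.

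**Figure D3:**
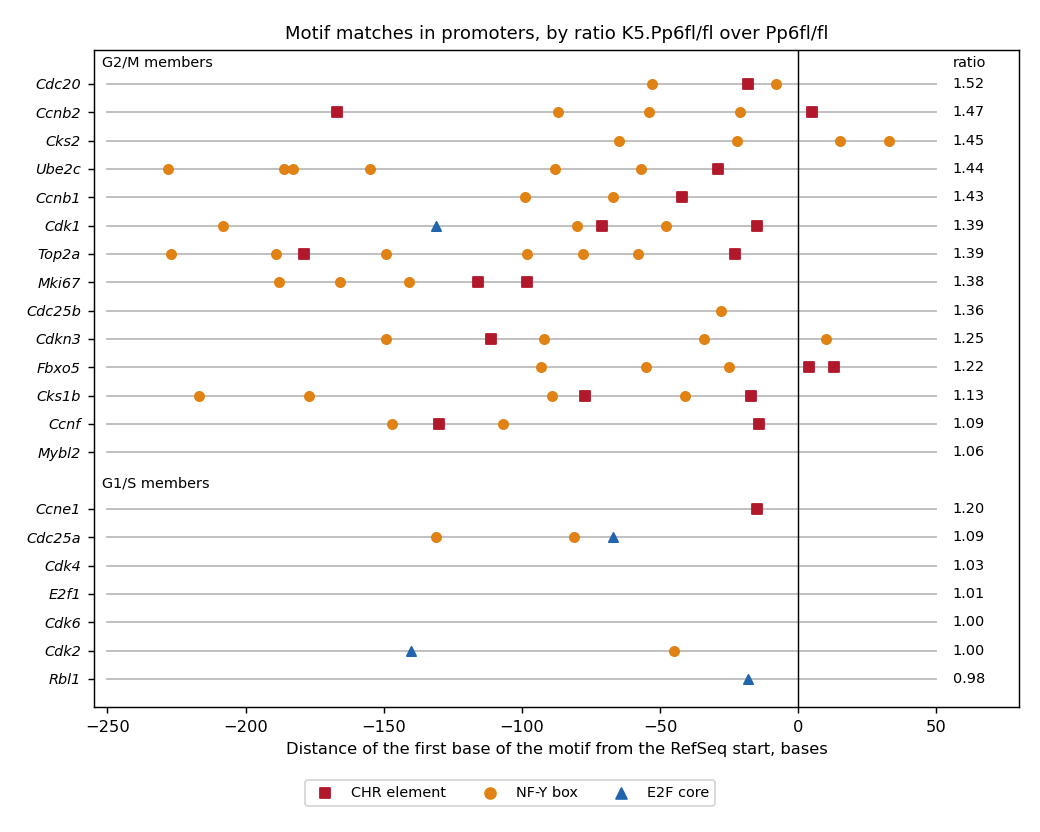
Position of motif matches, in bases from the RefSeq start, in the 300-base promoter windows of the G2/M and G1/S members with 1 annotated start, ordered within each list by the CPM ratio (K5.Pp6fl/fl over Pp6fl/fl) printed at the right. Squares are CHR elements, circles CCAAT boxes (bound by NF-Y) and triangles E2F cores, and squares with circles fill most G2/M windows from Cdc20 down to Ccnf.

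In K5.Pp6fl/fl the A- and B-type cyclins and their kinase stood higher by much the same proportion. Ccna2 (ENSMUSG00000027715), the cyclin of S phase and G2, had 2660 reads (153 CPM) in K5.Pp6fl/fl and 2053 reads (106 CPM) in Pp6fl/fl, a ratio of 1.44 (1.36 to 1.53). Ccnb1 (ENSMUSG00000041431), the main cyclin of mitotic entry, had 1278 reads (73.5 CPM) in K5.Pp6fl/fl and 994 reads (51.4 CPM) in Pp6fl/fl, a ratio of 1.43 (1.32 to 1.56). Ccnb2 (ENSMUSG00000032218), its relative at the Golgi, had 510 reads in K5.Pp6fl/fl and 387 in Pp6fl/fl, a ratio of 1.47 (1.28 to 1.68). These 3 cyclins thus lay within each other's intervals. Cdk1 (ENSMUSG00000019942), the kinase of mitosis, had 1514 reads (87.1 CPM) in K5.Pp6fl/fl and 1212 reads (62.6 CPM) in Pp6fl/fl, a ratio of 1.39 (1.29 to 1.5). Pairs of genes set against each other by reads, here and below, were chosen after their values were seen. Their intervals therefore add no support beyond the ratios of the single genes. The number of Ccnb1 reads per Cdk1 read was 1.03 times as high in K5.Pp6fl/fl as in Pp6fl/fl (0.919 to 1.15). That interval included 1, so cyclin B1 and its kinase kept their proportion within counting error. Among the 4 CDKs that drive the cycle, Cdk1 made up 48.3% of the summed FPKM, a measure scaled by transcript length, in K5.Pp6fl/fl and 39.5% in Pp6fl/fl. Part of that gap comes from Cdk4, whose implied length was 1350 bases in K5.Pp6fl/fl and 1236 in Pp6fl/fl. The ratio of Cdk4 was 0.942 by FPKM and 1.03 by reads. The size of the share also rests on the short length implied for Cdk1, 535 bases in K5.Pp6fl/fl and 525 in Pp6fl/fl. By CPM Cdk1 stood below Cdk4 (135 in K5.Pp6fl/fl and 132 in Pp6fl/fl) and below Cdk6 (122 in both libraries). Exons of Ccna2 overlap Exosc9 on the other strand, which these unstranded libraries cannot separate, and Exosc9 itself had a ratio of 0.988 (0.897 to 1.09).

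The small Cks proteins, which dock CDK complexes onto their substrates, did not share 1 value. Cks2 (ENSMUSG00000062248) had 573 reads in K5.Pp6fl/fl and 441 in Pp6fl/fl, a ratio of 1.45 (1.28 to 1.64). Cks1b, which also serves the Skp2 ligase in the removal of p27, had 715 reads in K5.Pp6fl/fl and 705 in Pp6fl/fl, a ratio of 1.13 (1.02 to 1.25). Reads of Cks2 per read of Cks1b were 1.28 times as high in K5.Pp6fl/fl as in Pp6fl/fl (1.09 to 1.51). Cks2 shares over 20% of its 50-base words with the pseudogenes Gm15452 and Gm19945, of which Gm15452 had 1 read in K5.Pp6fl/fl and 0 in Pp6fl/fl. Ccnf, the F-box cyclin that limits ribonucleotide reductase in G2, had 701 reads in K5.Pp6fl/fl and 718 in Pp6fl/fl, a ratio of 1.09 with an interval that included 1 (0.978 to 1.21). Its promoter, shown above, holds 2 CHR elements and a CCAAT box.

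Among the enzymes that switch Cdk1 on and off, the activating phosphatases were higher and the inhibitory kinases were not. Cdc25b (ENSMUSG00000027330), the phosphatase that starts mitotic entry, had 985 reads in K5.Pp6fl/fl and 808 in Pp6fl/fl, a ratio of 1.36 (1.24 to 1.49). Cdc25c (ENSMUSG00000044201), which amplifies it, was rare, with 102 reads in K5.Pp6fl/fl and 66 in Pp6fl/fl, and its ratio of 1.72 (1.25 to 2.38) was the highest of the 51 expressed members and among the least precise. Cdc25a, which acts mainly at the entry into S phase, had 941 reads in K5.Pp6fl/fl and 965 in Pp6fl/fl, a ratio of 1.09 (0.991 to 1.19). Of the 3 Cdc25 genes the 2 mitotic ones passed the rule. Wee1, the nuclear kinase that blocks Cdk1, had 723 reads in K5.Pp6fl/fl and 794 in Pp6fl/fl, a ratio of 1.01 (0.915 to 1.12). Pkmyt1, its membrane-bound relative, had 750 reads in K5.Pp6fl/fl and 867 in Pp6fl/fl, a ratio of 0.963 (0.872 to 1.06). Reads of Cdc25b per read of Wee1 were 1.34 times as high in K5.Pp6fl/fl as in Pp6fl/fl (1.16 to 1.54), and reads of Cdc25c per read of Wee1 1.7 times (1.21 to 2.39). Cdkn3, a phosphatase that removes the activating phosphate of CDKs, had 63 reads in K5.Pp6fl/fl and 56 in Pp6fl/fl, and its ratio of 1.25 (0.860 to 1.83) was too imprecise to place at this depth.

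The 2 activators of the APC/C stood apart. Cdc20 (ENSMUSG00000006398), which starts anaphase, had 1179 reads (67.8 CPM) in K5.Pp6fl/fl and 861 reads (44.5 CPM) in Pp6fl/fl, a ratio of 1.52 (1.40 to 1.67). Fzr1, the activator of mitotic exit and G1 that is also called Cdh1, had 1143 reads in K5.Pp6fl/fl and 1115 in Pp6fl/fl, a ratio of 1.14 (1.05 to 1.24). Reads of Cdc20 per read of Fzr1 were 1.34 times as high in K5.Pp6fl/fl as in Pp6fl/fl (1.18 to 1.51), and per length, by FPKM, Cdc20 stood at 1.55 times Fzr1 in K5.Pp6fl/fl and 1.13 times in Pp6fl/fl. Ube2c (ENSMUSG00000001403), the ubiquitin-conjugating enzyme of the APC/C, had 1362 reads in K5.Pp6fl/fl and 1050 in Pp6fl/fl, a ratio of 1.44 (1.33 to 1.57). Fbxo5, the inhibitor Emi1 that holds the APC/C off until mitosis, had 498 reads in K5.Pp6fl/fl and 453 in Pp6fl/fl, a ratio of 1.22 (1.08 to 1.39), short of the rule. The core subunits of the same machine did not show such ratios. The 16 genes of the APC/C core and its other conjugating enzymes had a median log2 ratio of 0.01. Of them 0 were at least 1.3-fold higher, against 6.64% of expressed genes, and 1 (6.25%) was lower, against 3.16%. The lower was Anapc16, with 512 reads in K5.Pp6fl/fl and 748 in Pp6fl/fl and a ratio of 0.762 (0.680 to 0.854). Exons of Cdc20 overlap Elovl1 on the other strand, which had a ratio of 0.938 with an interval that just included 1 (0.877 to 1.0).

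The regulators that switch the mitotic genes on had ratios below the G2/M median. Foxm1, the forkhead factor of G2, had 1176 reads in K5.Pp6fl/fl and 1065 in Pp6fl/fl, a ratio of 1.23 (1.13 to 1.34). Mybl2, which encodes B-Myb, had 1513 reads in K5.Pp6fl/fl and 1596 in Pp6fl/fl, a ratio of 1.06 (0.983 to 1.13). Lin54, the subunit of MuvB that contacts the CHR, had 765 reads in K5.Pp6fl/fl and 813 in Pp6fl/fl, a ratio of 1.05 (0.948 to 1.16). Only the interval of Foxm1 among these 3 was clear of 1, and none passed the rule. Of 5 other genes of the MuvB core and its partners 1 (20%) was higher by the rule, against 6.64% of expressed genes. It was Lin9, with 321 reads in K5.Pp6fl/fl and 267 in Pp6fl/fl and a ratio of 1.34 (1.13 to 1.58). Of 37 other mitotic genes known as targets of MuvB, B-Myb and FoxM1, none of them a member, 28 (75.7%) were at least 1.3-fold higher and 0 lower. Over all expressed genes 6.64% were higher and 3.16% lower. An interval above 1 was found for 35 of the 37 (94.6%), against 16.6% of expressed genes. The list was chosen with earlier results of these data known. These genes had a median log2 ratio of 0.45. Their ratios reached 1.75 (1.6 to 1.92) for the kinetochore protein Cenpf, at 71.9 CPM in K5.Pp6fl/fl and 41.0 CPM in Pp6fl/fl, and 1.7 (1.49 to 1.94) for the spindle protein Nusap1. The smallest past the rule were those of the mitotic kinase Aurkb, 1.3 (1.18 to 1.44), and the spindle protein Ckap2l, 1.31 (1.22 to 1.42).

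The markers used to count dividing cells followed the mitotic genes. Mki67 (ENSMUSG00000031004), which coats mitotic chromosomes, had 10374 reads (597 CPM) in K5.Pp6fl/fl and 8374 reads (433 CPM) in Pp6fl/fl, a ratio of 1.38 (1.34 to 1.42). Top2a (ENSMUSG00000020914), the topoisomerase that untangles sister chromatids, had 4688 reads (270 CPM) in K5.Pp6fl/fl and 3763 reads (194 CPM) in Pp6fl/fl, a ratio of 1.39 (1.33 to 1.45). The number of Mki67 reads per Top2a read in K5.Pp6fl/fl was 0.994 times that in Pp6fl/fl (0.944 to 1.05), an interval that included 1.

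The D-type cyclins and their kinases, which couple growth signals to the cycle, were at nearly the same levels in both libraries, and 0 of the 5 passed the rule. Ccnd1, the cyclin that growth factor signals induce, had 4067 reads (234 CPM) in K5.Pp6fl/fl and 4229 reads (219 CPM) in Pp6fl/fl, a ratio of 1.07 (1.03 to 1.12). Ccnd2 had 5869 reads in K5.Pp6fl/fl and 6663 in Pp6fl/fl, a ratio of 0.981 (0.947 to 1.02). Ccnd3 had 1084 reads in K5.Pp6fl/fl and 1304 in Pp6fl/fl, a ratio of 0.925 with an interval that just included 1 (0.853 to 1.0). All 3 intervals lay inside the bounds of the 1.3-fold rule. By FPKM, Ccnd2 made up 40.5% of the D-type cyclins in K5.Pp6fl/fl and 43.4% in Pp6fl/fl, and Ccnd1 37.3% in K5.Pp6fl/fl and 34.0% in Pp6fl/fl. The length implied by the FPKM of Ccnd2 was 4335 bases in K5.Pp6fl/fl and 4015 in Pp6fl/fl. Its ratio was therefore 0.910 by FPKM against 0.981 by reads, and these shares carry that difference. Cdk4 had 2350 reads in K5.Pp6fl/fl and 2548 in Pp6fl/fl, a ratio of 1.03 (0.970 to 1.09). Cdk6 had 2121 reads in K5.Pp6fl/fl and 2362 in Pp6fl/fl, a ratio of 1.0 (0.942 to 1.06). Exons of Ccnd1 overlap LTO1 (ratio 1.12, 0.945 to 1.33) and those of Cdk4 overlap Tspan31 (ratio 0.876, 0.817 to 0.940), both on the other strand.

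The E-type cyclins had intervals above 1, short of the rule, while that of their kinase included 1. Ccne1, which with Cdk2 starts DNA synthesis, had 330 reads in K5.Pp6fl/fl and 305 in Pp6fl/fl, a ratio of 1.2 (1.03 to 1.41). Ccne2 had 701 reads in K5.Pp6fl/fl and 628 in Pp6fl/fl, a ratio of 1.24 (1.11 to 1.39), the highest of the G1/S list. Cdk2 had 754 reads (43.4 CPM) in K5.Pp6fl/fl and 841 reads (43.5 CPM) in Pp6fl/fl, a ratio of 0.998 (0.904 to 1.1). Cdk2 also partners with cyclin A2, and reads of Ccna2 per read of Cdk2 were 1.45 times as high in K5.Pp6fl/fl as in Pp6fl/fl (1.29 to 1.62). Exons of Ccne2 overlap Ints8 on the other strand, with a ratio of 1.12 (1.02 to 1.22). Skp2, the F-box protein that marks p27 for destruction at the start of S phase, had 349 reads in K5.Pp6fl/fl and 423 in Pp6fl/fl, a ratio of 0.919 (0.795 to 1.06). Of 6 other genes of the SCF ligase that Skp2 works in, 0 passed the rule in either direction. Over all expressed genes 6.64% were higher and 3.16% lower. The scaffold Cul1 stood at a ratio of 0.997 (0.946 to 1.05) and the adaptor Skp1a at 1.06 (0.996 to 1.12). The CDK-activating kinase, which phosphorylates the cell cycle CDKs, was close to equal, with Ccnh at 470 reads in K5.Pp6fl/fl and 574 in Pp6fl/fl, a ratio of 0.912 (0.805 to 1.03), and Cdk7 at 568 reads in K5.Pp6fl/fl and 627 in Pp6fl/fl, a ratio of 1.01 (0.899 to 1.13).

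Activating E2F factors and the DP partners that they bind DNA with were close to equal. E2f1 had 557 reads in K5.Pp6fl/fl and 615 in Pp6fl/fl, a ratio of 1.01 (0.898 to 1.13), and E2f3 503 reads in K5.Pp6fl/fl and 567 in Pp6fl/fl, a ratio of 0.988 (0.874 to 1.12). E2f2 was rare, with 131 reads in K5.Pp6fl/fl and 128 in Pp6fl/fl, a ratio of 1.14 (0.886 to 1.47). Tfdp1, which encodes DP-1, had 3025 reads in K5.Pp6fl/fl and 3458 in Pp6fl/fl, a ratio of 0.974 (0.927 to 1.02), and Tfdp2 633 reads in K5.Pp6fl/fl and 667 in Pp6fl/fl, a ratio of 1.06 (0.946 to 1.18). All 5 of these intervals included 1. Of 37 genes of DNA replication and S phase, many of them known E2F targets, 1 was at least 1.3-fold higher and 1 lower (2.70% each). Over all expressed genes 6.64% were higher and 3.16% lower. The median log2 ratio of the 37 was 0.00. By the counting interval alone, 6 of the 37 (16.2%) lay above a ratio of 1, against 16.6% of expressed genes, and 13 (35.1%) lay below it, against 17.4%. The 13 included the replicative helicase genes Mcm2 to Mcm6, with Mcm2 at 177 CPM in K5.Pp6fl/fl and 198 CPM in Pp6fl/fl, a ratio of 0.896 (0.854 to 0.939). The higher was Rrm2, a subunit of ribonucleotide reductase, at 207 CPM in K5.Pp6fl/fl and 159 CPM in Pp6fl/fl, a ratio of 1.3 (1.24 to 1.36). The lower was Cdca7, a partner of the chromatin remodeller Hells, at 96.4 CPM in K5.Pp6fl/fl and 131 CPM in Pp6fl/fl, a ratio of 0.734 (0.690 to 0.781).

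The 3 lowest ratios of the expressed members were those of repressive E2F factors, E2f7, E2f4 and E2f6, and the atypical E2f7 and E2f8 had intervals on opposite sides of 1. E2f4 (ENSMUSG00000014859), the E2F that occupies promoters together with p107 and p130 in resting cells, had 1367 reads (78.6 CPM) in K5.Pp6fl/fl and 1781 reads (92.0 CPM) in Pp6fl/fl, a ratio of 0.854 (0.796 to 0.917). E2f6, a repressor that needs no pocket protein, had 478 reads in K5.Pp6fl/fl and 613 in Pp6fl/fl, a ratio of 0.868 (0.769 to 0.980). E2f5, the relative of E2f4, had 193 reads in K5.Pp6fl/fl and 206 in Pp6fl/fl, a ratio of 1.04 (0.853 to 1.28). E2f7 and E2f8 are atypical repressors that bind DNA without a DP partner. E2f7 (ENSMUSG00000020185) had 741 reads (42.6 CPM) in K5.Pp6fl/fl and 1023 reads (52.9 CPM) in Pp6fl/fl, a ratio of 0.806 (0.733 to 0.887). E2f8 (ENSMUSG00000046179) had 704 reads (40.5 CPM) in K5.Pp6fl/fl and 658 reads (34.0 CPM) in Pp6fl/fl, a ratio of 1.19 (1.07 to 1.33). Reads of E2f8 per read of E2f7 were 1.48 times as high in K5.Pp6fl/fl as in Pp6fl/fl (1.28 to 1.71), a pair chosen with its values known. None of the 5 passed the 1.3-fold rule.

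Of the pocket proteins 1 had an interval above 1, short of the rule. Rb1, the retinoblastoma protein, had 673 reads in K5.Pp6fl/fl and 598 in Pp6fl/fl, a ratio of 1.25 (1.12 to 1.40). Rbl1, which encodes p107 and is itself an E2F target, had 2369 reads in K5.Pp6fl/fl and 2685 in Pp6fl/fl, a ratio of 0.982 (0.929 to 1.04), and Rbl2, which encodes p130, had 497 reads in K5.Pp6fl/fl and 558 in Pp6fl/fl, a ratio of 0.992 (0.877 to 1.12). By FPKM, Rb1 made up 24.3% of the 3 pocket protein transcripts in K5.Pp6fl/fl and 19.8% in Pp6fl/fl, and Rbl1 62.6% in K5.Pp6fl/fl and 66.8% in Pp6fl/fl. Exons of Rb1 overlap Lpar6 and Rcbtb2 on the other strand, whose ratios were 0.896 (0.805 to 0.996) and 0.918 (0.8 to 1.05).

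All 5 expressed CDK inhibitors had ratios above 1, and none passed the rule. Cdkn1a, the p21 gene that p53 and differentiation induce, was the most abundant inhibitor by FPKM (286 in K5.Pp6fl/fl and 249 in Pp6fl/fl), with 7175 reads (413 CPM) in K5.Pp6fl/fl and 7005 reads (362 CPM) in Pp6fl/fl, a ratio of 1.14 (1.1 to 1.18). It made up 94.2% of the summed Cip/Kip FPKM in K5.Pp6fl/fl and 94.3% in Pp6fl/fl. Cdkn1b, the p27 gene, had 728 reads in K5.Pp6fl/fl and 713 in Pp6fl/fl, a ratio of 1.14 (1.02 to 1.26). The expressed INK4 genes, whose products bind Cdk4 and Cdk6, had FPKM values of 4.72 to 9.14 in K5.Pp6fl/fl and 3.56 to 7.51 in Pp6fl/fl. Cdkn2c, the p18 gene, had 320 reads in K5.Pp6fl/fl and 288 in Pp6fl/fl, a ratio of 1.24 (1.05 to 1.46). Cdkn2b, the p15 gene that TGF-beta induces, had 89 reads in K5.Pp6fl/fl and 75 in Pp6fl/fl, and Cdkn2d, the p19 gene of the family, had 101 reads in K5.Pp6fl/fl and 93 in Pp6fl/fl, a ratio of 1.21 (0.903 to 1.62). The intervals of these 2 included 1. Reads of Ccnd1 per read of Cdkn1a in K5.Pp6fl/fl were 0.939 times those in Pp6fl/fl (0.889 to 0.992).

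The remaining inhibitors were barely detected. Cdkn2a, whose products p16 and p19ARF mark senescent cells, had 0 reads in K5.Pp6fl/fl and 1 in Pp6fl/fl. A count of 0 in the K5.Pp6fl/fl library allows up to 3 reads (a one-sided 95% limit), so a difference was not detectable at this depth. Cdkn1c, the p57 gene, had 15 reads in K5.Pp6fl/fl and 8 in Pp6fl/fl, a ratio of 2.09 whose interval spanned 1 widely (0.831 to 5.68). It shares over 20% of its 50-base words with Gm44732, a gene model on the other strand that had 0 reads in K5.Pp6fl/fl and 7 in Pp6fl/fl. With both added, the log2 ratio of Cdkn1c was 0.10 in place of 0.58. Among 14 antiproliferative and quiescence genes outside the module, 1 (7.14%) was at least 1.3-fold higher, near the 6.64% of all expressed genes. Another 2 (14.3%) were lower, against 3.16% of all, and the median log2 ratio was -0.05. Mxd1, which opposes Myc and is known from differentiating keratinocytes, had 1216 reads in K5.Pp6fl/fl and 905 in Pp6fl/fl, a ratio of 1.5 (1.37 to 1.63). Txnip, the thioredoxin inhibitor that glucose induces, stood at 169 CPM in K5.Pp6fl/fl and 322 CPM in Pp6fl/fl, a ratio of 0.523 (0.501 to 0.547), and the growth arrest gene Gas1 at a ratio of 0.739 (0.653 to 0.837). Among 24 expressed other cyclins and CDKs, which serve transcription and other tasks, 1 (4.17%) was higher by the rule and 0 lower. These shares were below the 6.64% and 3.16% of all expressed genes. The 1 was the growth arrest cyclin Ccng2, at 45.4 CPM in K5.Pp6fl/fl and 33.6 CPM in Pp6fl/fl, a ratio of 1.35 (1.22 to 1.5). The median log2 ratio of the 24 was -0.02.

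**Figure D4:**
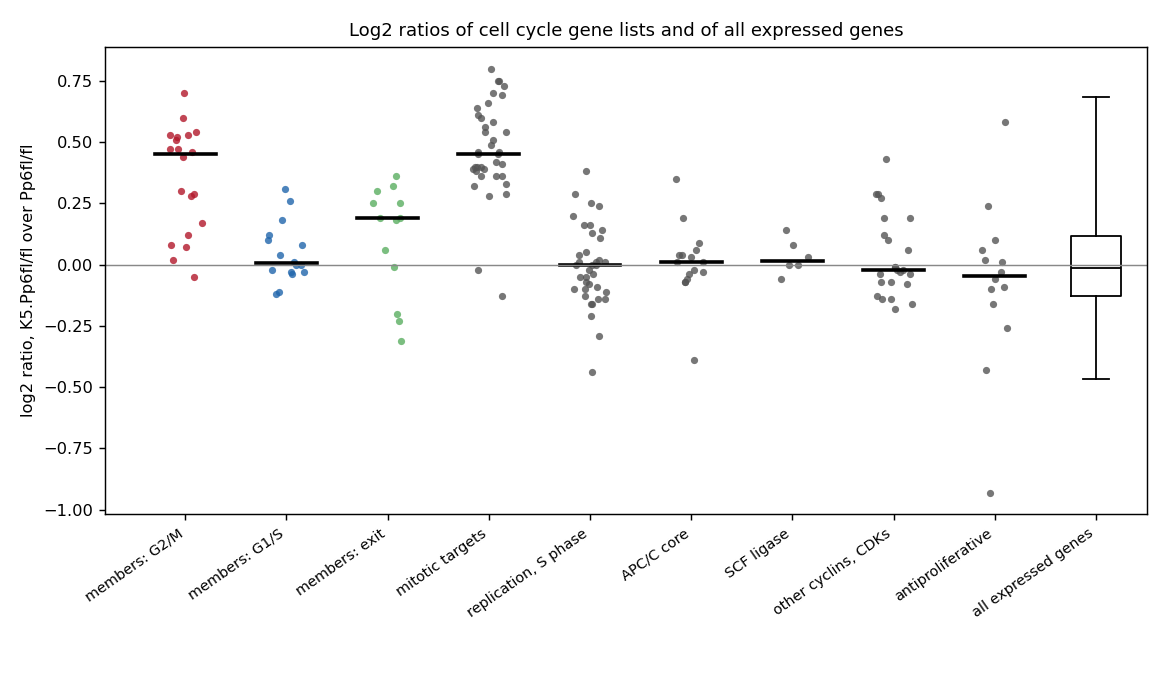
Log2 ratio (K5.Pp6fl/fl over Pp6fl/fl, 0.5 CPM added) of each expressed gene in the member lists and in the other cell cycle lists, with a bar at the median, beside all 12326 expressed genes as a box of the quartiles with whiskers over the middle 95%. The G2/M members and the mitotic targets both have a median of 0.45, against 0.01 for the G1/S members, 0.00 for replication genes and -0.01 for all expressed genes.

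The authors' deposited table gives a log2 fold change and a false discovery rate (FDR) per gene, which also rest on 1 library per genotype. Members with an FDR under 0.05 in the authors' deposited table numbered 17 with a higher value in K5.Pp6fl/fl, against 8.86% of expressed genes, and 2 with a lower value, against 5.50%. The lower ones were E2f4 and E2f7, with log2 fold changes of -0.22 and -0.44 in the authors' deposited table. The 17 were the 11 past the 1.3-fold rule together with Ccne2, Cdkn1a, E2f8, Rb1, Foxm1 and Fbxo5. Of its 47719 gene identifiers the authors' deposited table marks 170 as significant, and none of the 53 members was among them. At so small a share, the absence of members says little about them. FPKM divides reads by an effective transcript length, and the length that the values imply was not the same in both libraries for every gene. For 9 of 51 expressed members it differed by more than 5%. The lengths implied for E2f3 were the furthest apart, with FPKM values of 81.2 in K5.Pp6fl/fl and 116 in Pp6fl/fl, a ratio of 0.699, although its ratio of reads was 0.988. For E2f3 the authors' deposited table holds a log2 fold change of -0.52 and an FDR of 1. The length implied for E2f3 was 357 bases in K5.Pp6fl/fl and 252 bases in Pp6fl/fl, both below its shortest reference transcript of 389 bases. Ccnb1 had a ratio of 1.29 by FPKM and 1.43 by reads, and E2f7 one of 0.734 by FPKM and 0.806 by reads. For Cdk7 the implied length, 7286 bases in K5.Pp6fl/fl and 7298 in Pp6fl/fl, was above its longest reference transcript (GENCODE, GRCm38) of 1988 bases, so its FPKM was not set beside that of other genes here.

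**Figure D5:**
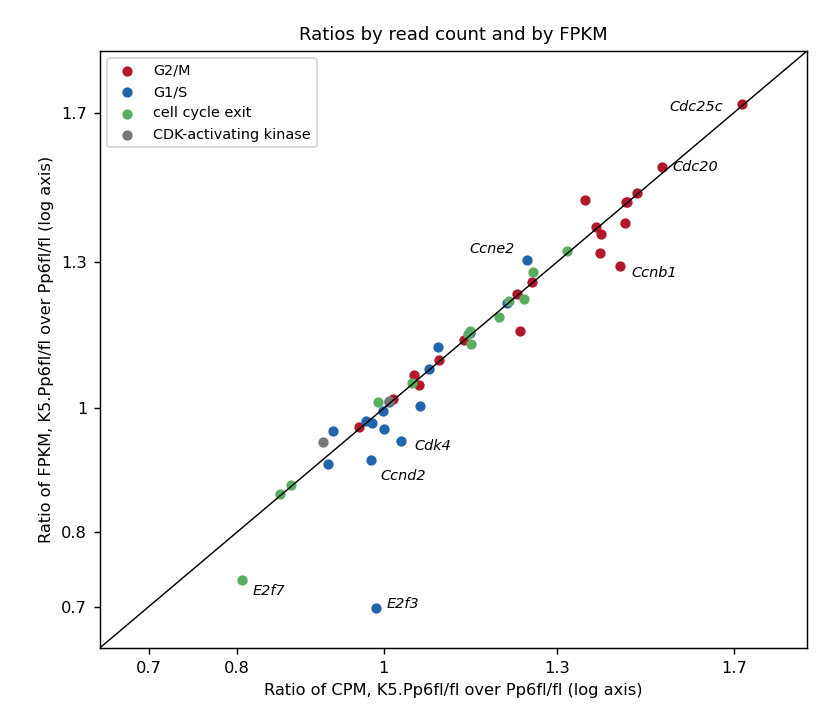
FPKM ratio against CPM ratio for the expressed members, K5.Pp6fl/fl over Pp6fl/fl, both axes log, coloured by phase list, with the line of equal ratios. Most members lie on the line, and E2f3 lies farthest below it, at 0.988 by CPM and 0.699 by FPKM.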

How the data were processed

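Gene-level values were deposited as 1 table of both libraries. Per the labels' protocols, RNA was extracted with Trizol and polyadenylated RNA was sequenced from a TruSeq kit that does not mark strand. The submitters' processing notes name RSEM, edgeR and mm8 without versions, and the aligner and the annotation release were not given in the sources used here. As deposited, the estimated counts had been multiplied by 1 constant per library. Divided by it, 97.4% of K5.Pp6fl/fl and 97.3% of Pp6fl/fl values under 100 reads were whole within 0.01, and these estimated reads, rounded, were used in place of the unscaled counts the design assumed. The authors' deposited FPKM, log2 fold change and p-value columns were used as given, the p-value column only through its FDR.

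CPM were computed on library sizes scaled by TMM factors (edgeR 4.0.16, R 4.3.3), 1.00 and 0.999 for K5.Pp6fl/fl and Pp6fl/fl. The ratio, K5.Pp6fl/fl over Pp6fl/fl, has a 95% interval from the exact binomial (Clopper-Pearson) limits of its share of reads, which covers counting error only. At 20 CPM or more in both libraries it reached at most 0.21 to either side on the log2 scale. Each genotype had 1 library, so no test between genotypes was run. Exons of 22 members overlap another gene on the opposite strand. Promoters came from RefSeq, matched by symbol. The members, lists, fold rule and pairs were chosen with earlier results of these data known, the pairs after their values were seen. Genes outside the module were named as the 2 largest and 2 smallest ratios, per list, among genes past the rule with 5 CPM or more, or the 2 most abundant where none passed. Alternatives were other scalings (DESeq2 1.42.0 size factors), FPKM, other pseudocounts, floors and folds, sums with genes that share sequence, and a correction for GC content and length.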

Additional observations from a re-analysis of the deposited data

How the results depend on the processing

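The 11 members past the 1.3-fold rule were the same 11, with 0 lower, under library totals without TMM factors, median-of-ratios size factors, pseudocounts of 0.1 and 2 CPM (which the rule does not use), floors of 5 CPM and of none, sums with genes that share sequence, and the correction for GC content and length. No member passed the 2-fold rule, which adds 0.5 to each value where no other pseudocount is named, under any of these or by FPKM. Cdkn1c, under 1 CPM in both libraries, had a plain ratio of 2.09 by reads and 2.83 by FPKM. With 0.5 added its log2 ratio was 0.58 by reads and 0.77 by FPKM. By FPKM scaled to the same total over all genes in both libraries, without a counting interval, 13 were higher, the same 11 with Ccne2 and Cdkn2b, and 2 were lower, E2f3 and E2f7. Ccnb1 is among the 13 after that scaling, since the ratio of its FPKM as deposited was 1.29. On this scale 11.8% of expressed genes were higher and 8.01% lower. The size of the fold set the count, in alternatives chosen after seeing the data: 17 higher and 1 lower at 1.2-fold, where 9.25% and 6.32% of expressed genes passed, and 2 higher at 1.5-fold, where 3.86% passed. The median log2 ratio of the G2/M members ran from 0.39 by FPKM to 0.47 with the GC and length correction. Single members whose log2 ratio moved were Ccnb1 (0.37), Ccnd2 (-0.12), Cdk4 (-0.07) and E2f3 (-0.50) by FPKM, and Cdkn1a (0.24) with the GC and length correction. No paired analysis was possible because each genotype has 1 library, and no library could be left out. With 1 library per genotype, differences between cultures of 1 genotype are not measured, and members with few reads, such as Cdc25c, Cdkn2b and Cdkn3, have wide intervals.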
